A study of Solanum lycopersicum x Solanum pennellii and Solanum lycopersicum and Solanum pennellii with 31 samples.

Results

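The small RNAs (sRNAs) of H06 were examined in 6 libraries of Solanum pennellii, a wild relative of tomato, out of 31 samples in the series. They are every library of the deposited S. pennellii table, namely 2 of flowers, 2 of pollen and 2 of leaves, grouped by the tissue at the end of each column name. Across these libraries the table lists 61 reads of 46 distinct sequences of 15 to 24 nt that match H06.

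The study asked how H06, a locus on chromosome 8 whose epigenetic state can be imposed by one allele on the other, behaves in the cultivated tomato M82, in S. pennellii LA0716 and in their F1 hybrid. Flowers and pollen were sampled at 2 months and leaves at 2 weeks, from individual plants of one accession or cross with no transgene and no treatment. M82 has 6 such libraries (2 per tissue) and the F1 has 12 (4 per tissue), and they serve here for comparison. Leaves came from young seedlings, so tissue and age cannot be told apart, and in whole organs fewer cells making sRNAs and fewer sRNAs per cell cannot be told apart either. No marker of a tissue can be read from tables of a single locus, so the labels of the tissues were not checked.

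In plants, 24-nt sRNAs are made from transcripts of RNA polymerase IV that are copied into double strands and cut by Dicer-like enzymes, and, once bound by Argonaute proteins, they guide DNA methyltransferases to matching sequence. This pathway is known as RNA-directed DNA methylation (RdDM). In paramutation, one allele passes its silenced state to the other allele in a heterozygote, and RdDM has been tied to it by maize mutants. Argonautes of the RdDM pathway favour sRNAs that begin with A, which is why the first base is given here.

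The second flower column of the S. pennellii table carries a misprinted genotype name that also stands over a column of the M82 table. The 2 columns are not copies. The one in the S. pennellii table held 7 reads of 7 sequences, the one in the M82 table held 1 read of 1 sequence, and they shared 0 sequences. Of the 7 sequences, 5 matched the S. pennellii allele alone and 2 were also found in the first flower library. Since the name does not give the genotype, flower values rest on replicate 1, and the value with the column, called flower replicate 2, follows. Some reads went against the genotype of the plant: 6 reads of S. pennellii pollen matched the M82 allele alone, and the 2 reads of M82 flowers matched the S. pennellii allele alone. Both M82 reads were 15 nt long, and the pollen reads included single reads of 15, 19 and 20 nt. Where these reads came from was not tested. Reads were matched to H06 alone, so whether any of them also match elsewhere in the genome was not tested either. The number of reads sequenced per library is not in the tables, so a difference in depth between libraries enters every count below in full.

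The sequences below are those seen in 2 or more libraries or by 2 or more reads, those that match M82 alone, and the only leaf sequence. Each is written 5′ to 3′ as DNA. Capitals mark bases that differ from the other allele in the best match without gaps, and are given only where 3 bases or fewer differ. Of the 46 sequences 36 had 1 read, and no sequence had more than 4 reads.
In 3 libraries, flower replicates 1 and 2 and pollen replicate 2: agacacaacaaAatcactgacaCt
In 2 libraries, 1 read in flower replicate 1 and 3 reads in pollen replicate 2: gagaTAaaacgagacaaaagtagT
In 3 libraries and on both alleles, flower replicate 2 and both pollen replicates: aatgatagtttatgtgtagtattc
Flower replicate 1 and pollen replicate 1: attccattggcatttcacActCtt
Flower replicates 1 and 2: tttctccatatcaatgacttcttg
Flower replicate 1, 20 nt: ttatgttgCTCtgtttgccc
Flower replicate 1, 24 nt: aaAatcactgacaCtaaTgacaag
Flower replicate 1, 23 nt: ttggtcgaagagtgtgaaatgcc
Pollen replicate 1: gtgtctttctccatatcaatgact
Matching M82 alone, pollen replicate 2, 2 reads: catggaaatacaatattggCtact
Matching M82 alone, pollen replicate 2, 24 nt: aGccaatattgtatttccatgttt
Matching M82 alone, pollen replicate 1, 20 nt: aGccaatattgtatttccat
Matching M82 alone, pollen replicate 2, 19 nt: atcactgacaAtaaGgaca
Matching M82 alone, pollen replicate 2, 15 nt: actttgtttggtAtc
Leaf replicate 2, on both alleles: attgcggatctgataaaaagacat

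H06 sRNAs were found in S. pennellii flowers and pollen and were almost absent from its leaves. Reads of 23-24 nt, the size of RdDM sRNAs, numbered 19 in flower replicate 1, 9 and 11 in the pollen libraries, and 0 and 1 in the leaf libraries. Flower replicate 2 held 6. Flowers and pollen therefore did not overlap with leaves, with or without the misprinted column. The single leaf read was a 24-nt sequence of the reverse strand, beginning with A, that both alleles carry.

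The mean was 19 reads in flowers (n = 1) against 0.5 ± 0.707 in leaves (SD, n = 2), a ratio of 38 per library with an exact 95% interval of 6.04 to 1579. With the misprinted column the flower mean was 12.5 ± 9.19 (n = 2) and the ratio 25 (4.09 to 1026). Pollen had a mean of 10 ± 1.41 against 0.5 ± 0.707 in leaves (SD, n = 2 each), a ratio of 20 (3.20 to 829). These intervals cover counting error only, leave out differences between plants, and may be too narrow because amplified reads are not independent molecules. A leaf library with 0 reads allows up to 3.69 reads. Flowers and pollen together exceeded leaves by 12.5 reads per library (exact permutation test, two-sided, 3 libraries against 2, p = 0.10, the smallest this design allows; adjusted p = 0.333 over 4 comparisons between tissues). With the misprinted column the difference was 10.75 (exact permutation test, 4 libraries against 2, p = 0.133, adjusted p = 0.444).

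Flowers and pollen were not told apart by their number of reads. The ratio of flowers to pollen was 1.90 (0.959 to 3.75), and 1.25 (0.667 to 2.37) with the misprinted column. The difference of 9 reads fell to 2.5 with that column (exact permutation test, two-sided, p = 0.333 without it, the smallest 1 library against 2 can give, and p = 1 with it). The 2 flower libraries, at 19 and 6 reads, lay on either side of the pollen libraries. Reads of all sizes numbered 26 reads in flower replicate 1 and 7 in flower replicate 2, 12 and 15 in pollen, and 0 and 1 in leaves.

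**Figure D1:**
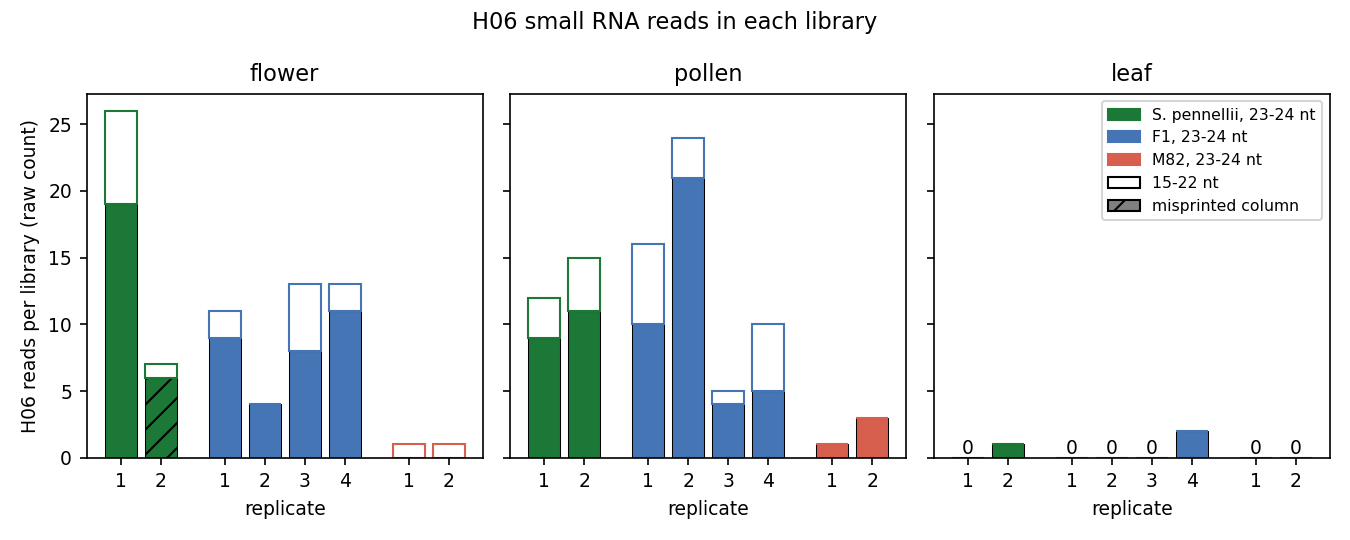
Raw counts of H06 reads in each library, by tissue. Filled bars are reads of 23-24 nt and open bars on top are reads of 15-22 nt, in S. pennellii, F1 and M82; the hatched bar is the misprinted column. S. pennellii flowers and pollen held 6 to 19 reads of 23-24 nt and leaves 0 and 1.

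Each S. pennellii flower and pollen library held more H06 reads of 23-24 nt than any M82 library of its tissue, and the difference over tissues did not pass the threshold after adjustment. M82 held 0 reads of 23-24 nt in either flower library, 1 and 3 in pollen and 0 in both leaf libraries. The second M82 flower column has the misprinted name too, and was read as M82 from the table it stands in. Averaged over the 3 tissues the means were 9.83 reads per library in S. pennellii and 0.667 in M82, a difference of 9.17 (exact permutation test within tissues, two-sided, 5 libraries against 6, p = 0.0278, the smallest this design allows; adjusted p = 0.0556 over 2 comparisons between genotypes). Without the misprinted M82 column the difference was again 9.17 (exact permutation p = 0.0833, adjusted p = 0.167). With the misprinted S. pennellii column it was 7 and the exact permutation p was 0.0278. The paper's wording allows leaf, flower and pollen libraries to come from the same plants. The tests over tissues took all libraries as independent, so their p-values may be too small. Against the F1, whose mean was 6.17, S. pennellii was higher by 3.67 reads, which is within the spread of the libraries (exact permutation test, 5 libraries against 12, p = 0.177; 1.5 reads and p = 0.602 with the misprinted column). Leaving out reads that match M82 alone, and without the misprinted column, the difference was 6 reads (exact permutation p = 0.0747). The F1 libraries ran from 4 to 11 reads in flowers and from 4 to 21 in pollen, with reads of both alleles counted. Flower replicate 1 of S. pennellii, at 19, lay above every F1 flower library and flower replicate 2 lay within their range. Both pollen libraries lay within the F1 range. Reads that matched M82 alone made up 5, 2, 7 and 7 of the 9, 4, 8 and 11 reads in F1 flowers. Reads matching S. pennellii alone numbered 3, 2, 1 and 4 in F1 flowers, against 19 and 4 in S. pennellii flowers. Flower replicate 2 held 2 more that matched both alleles, and F1 flower replicate 1 held 1 more. In pollen, reads matching S. pennellii alone numbered 4, 17, 3 and 3 in the F1, against 8 and 7 in S. pennellii.

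The sRNAs of flowers and pollen were mostly 24 nt long. In flower replicate 1, 15 of 26 reads (57.7%, exact binomial 95% interval 36.9 to 76.7) were 24 nt and 4 were 23 nt, and the 7 shorter reads spread over 16 nt (1 read), 20 nt (2), 21 nt (3) and 22 nt (1). In pollen, 8 of 12 reads of replicate 1 and 11 of 15 reads of replicate 2 were 24 nt, together 70.4% (49.8 to 86.2), and 1 was 23 nt. Flower replicate 2 had 4 reads of 24 nt and 2 of 23 nt among 7. The share of 23-24 nt together was close in both tissues, 73.1% in flowers (52.2 to 88.4) and 74.1% in pollen (53.7 to 88.9). Reads of 21 nt, the size of microRNAs and of the siRNAs that act on messenger RNA, appeared in flower replicate 1 and in no other S. pennellii library. With 7, 12 and 15 reads in the other flower and pollen libraries, their absence there cannot be told from low depth. No F1 library held a read of 21 nt.

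**Figure D2:**
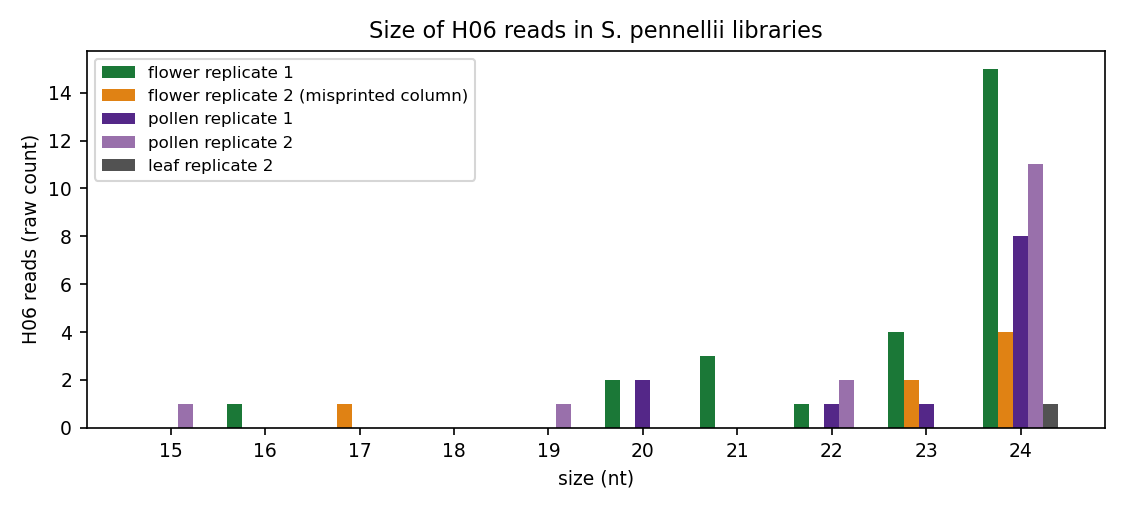
Raw counts of H06 reads by size, in nucleotides, in the 5 S. pennellii libraries with reads; each bar is 1 library and 1 size. The 24-nt class holds 15 and 4 reads in the flower libraries, 8 and 11 in pollen and 1 in leaf.

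Both strands of H06 gave sRNAs in both reproductive tissues. Flower replicate 1 had 9 forward and 17 reverse reads, so that 34.6% (17.2 to 55.7) were forward, and flower replicate 2 had 3 and 4. Pollen had 5 forward and 7 reverse reads in replicate 1 and 8 and 7 in replicate 2, together 48.1% forward (28.7 to 68.0). In S. pennellii alone the flower library lay below both pollen libraries, whereas flower replicate 2, at 42.9%, lay between them. Counting distinct sequences in place of reads, the forward share was 40.9% in flower replicate 1 and 43.5% in pollen. To look for pairs, sequences of all S. pennellii libraries were pooled, misprinted column included, so a pair can join sequences of different tissues. Among the 41 sequences placed on the S. pennellii allele, 17 were forward and 24 reverse. These formed 19 pairs on opposite strands that shared 15 or more bases, and 0 of the pairs of 24-nt sequences had the 2-base 3′ overhangs of a Dicer-like cut. Most sequences were read once, so this depth cannot decide whether such pairs were made.

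A lower forward share in flowers than in pollen was also seen in the F1, where flower libraries ran from 18.2% to 50% and pollen libraries from 56.25% to 62.5%. These F1 shares pool reads of both alleles, and the mix differed by tissue. Reads matching S. pennellii alone were 14 of 41 in F1 flowers and 38 of 55 in F1 pollen. Over both genotypes the difference was -20.07 percentage points (33.5% in flowers and 53.6% in pollen, exact permutation test within genotypes, two-sided, 5 libraries against 6, p = 0.00952, adjusted p = 0.0476 over 5 shares compared). This test was chosen after the data had been seen. It gave each library equal weight, though F1 libraries held as few as 4 reads in flowers and 5 in pollen. Within S. pennellii alone the difference was -12.88 points with an exact permutation p = 0.667, and within the F1 alone -27.26 points with an exact permutation p = 0.0286 (adjusted p = 0.0714). Leaving out S. pennellii pollen replicate 1 gave an adjusted p = 0.0714, and leaving out any 1 of the 4 F1 pollen libraries gave an adjusted p = 0.0952, all by exact permutation. If equal replicate numbers mark the same plant, which the labels do not say, flowers were lower in 5 of 5 pairs, with a mean difference of -17.15 points (exact permutation of signs within pairs, p = 0.0625, the smallest 5 pairs allow, adjusted p = 0.156).

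**Figure D3:**
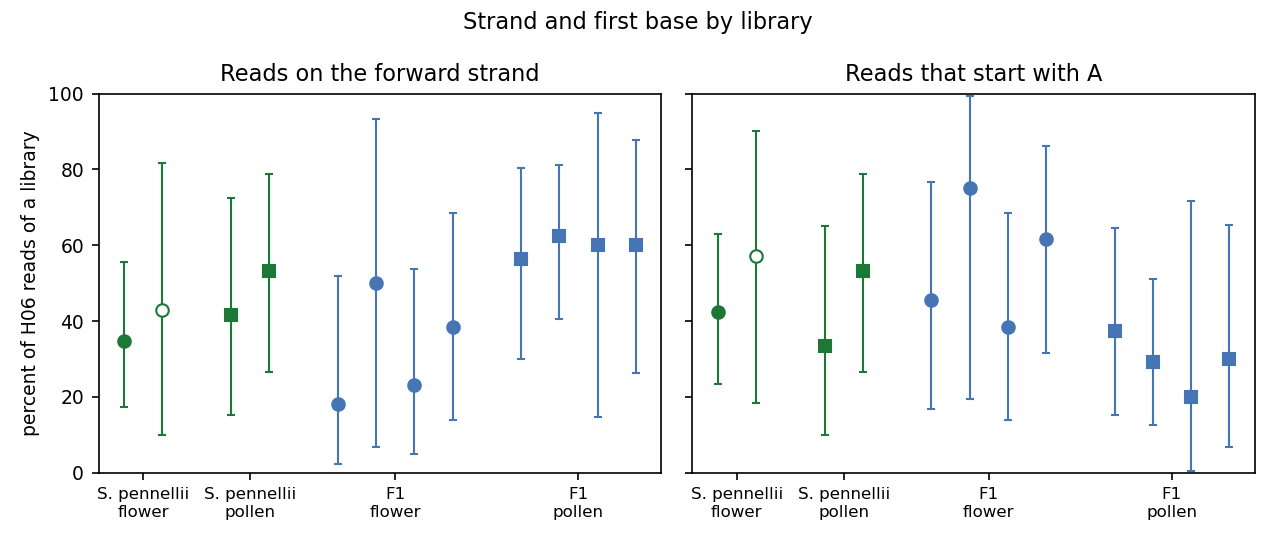
Percent of the H06 reads of a library on the forward strand (left) and beginning with A (right), in S. pennellii and F1, with flowers as circles and pollen as squares; bars are exact binomial 95% intervals and the open circle is the misprinted column. In the F1 the forward share is at most 50% in flowers and at least 56.25% in pollen, while in S. pennellii it is 34.6% and 42.9% in flowers and 41.7% and 53.3% in pollen.

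A was the commonest first base over both pollen libraries, and in flower replicate 1 A and T were equally common. First bases were counted in reads of all sizes. The share of A in H06 itself was not computed, so the counts cannot show a preference for A. Flower replicate 1 had 11 reads that began with A, 11 with T, 3 with C and 1 with G. Flower replicate 2 had 4 with A and 1 with each other base. Pollen had 4 with A, 5 with T, 0 with C and 3 with G in replicate 1, and 8 with A, 1 with T, 3 with C and 3 with G in replicate 2. The share that began with A was 42.3% in flowers (23.4 to 63.1) and 44.4% in pollen (25.5 to 64.7), and the 2 pollen libraries, at 33.3% and 53.3%, lay on either side of the flower value. In the F1, with reads of both alleles pooled, the share was 55.1% in flowers and 29.2% in pollen, a difference of 25.95 points (exact permutation test, 4 libraries against 4, p = 0.0286, adjusted p = 0.0714). Over both genotypes it was 12.46 points (exact permutation test within genotypes, p = 0.162, adjusted p = 0.270).

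Reads were scattered along the 471 bases of the S. pennellii H06 sequence, with more of them in its first part in flowers. Flower reads ran from base 16 to base 441 and covered 252 bases (53.5%), and pollen reads ran from base 63 to base 466 and covered 266 bases (56.5%). The single leaf read lay at bases 219 to 242. In flowers 21 of 26 reads (80.8%, 60.7 to 93.5) were centred before the middle base, 236, against 12 of 21 placed pollen reads (57.1%, 34.0 to 78.2). Both pollen libraries, at 63.6% and 50%, were below the flower library and below flower replicate 2, which stood at 85.7%. In S. pennellii alone the exact permutation p was 0.333 without and with the misprinted column, the smallest these libraries allow. Over S. pennellii and the F1, counting reads placed on the S. pennellii sequence in both, the difference was 21.3 points (exact permutation test within genotypes, p = 0.119, adjusted p = 0.270). The F1 flower libraries had only 2 to 6 such reads each.

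In flower replicate 1, bases 101 to 200 held 15 of the 26 reads. Pollen reads were frequent there too, with 5 of 21 placed reads in bases 101 to 150 and 5 in bases 151 to 200. All 6 flower reads centred in bases 101 to 150 were reverse, among them 2 reads of agacacaacaaAatcactgacaCt, at bases 129 to 152, and 2 of aaAatcactgacaCtaaTgacaag, at bases 120 to 143. The 9 flower reads of bases 151 to 200 were of both strands, 5 forward and 4 reverse, and the deepest point, base 189, had 8 reads. In pollen the deepest stretch was bases 147 to 152, with 6 reads. Pollen replicate 2 held 1 read of the sequence at bases 129 to 152, and the pollen reads centred in bases 101 to 150 were of both strands, 2 forward and 3 reverse.

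Bases 251 to 300 held 3 pollen reads, all of 1 sequence in pollen replicate 2. The forward sequence gagaTAaaacgagacaaaagtagT, at bases 271 to 294, had 3 reads there and 1 read in flower replicate 1, and F1 pollen had 2. From base 301 to base 400 flower replicate 1 had no read centred, while the reverse sequence aatgatagtttatgtgtagtattc, at bases 310 to 333, had 1 read in flower replicate 2 and 1 in each pollen library. Both alleles carry that sequence, and F1 flowers held 1 read of it.

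**Figure D4:**
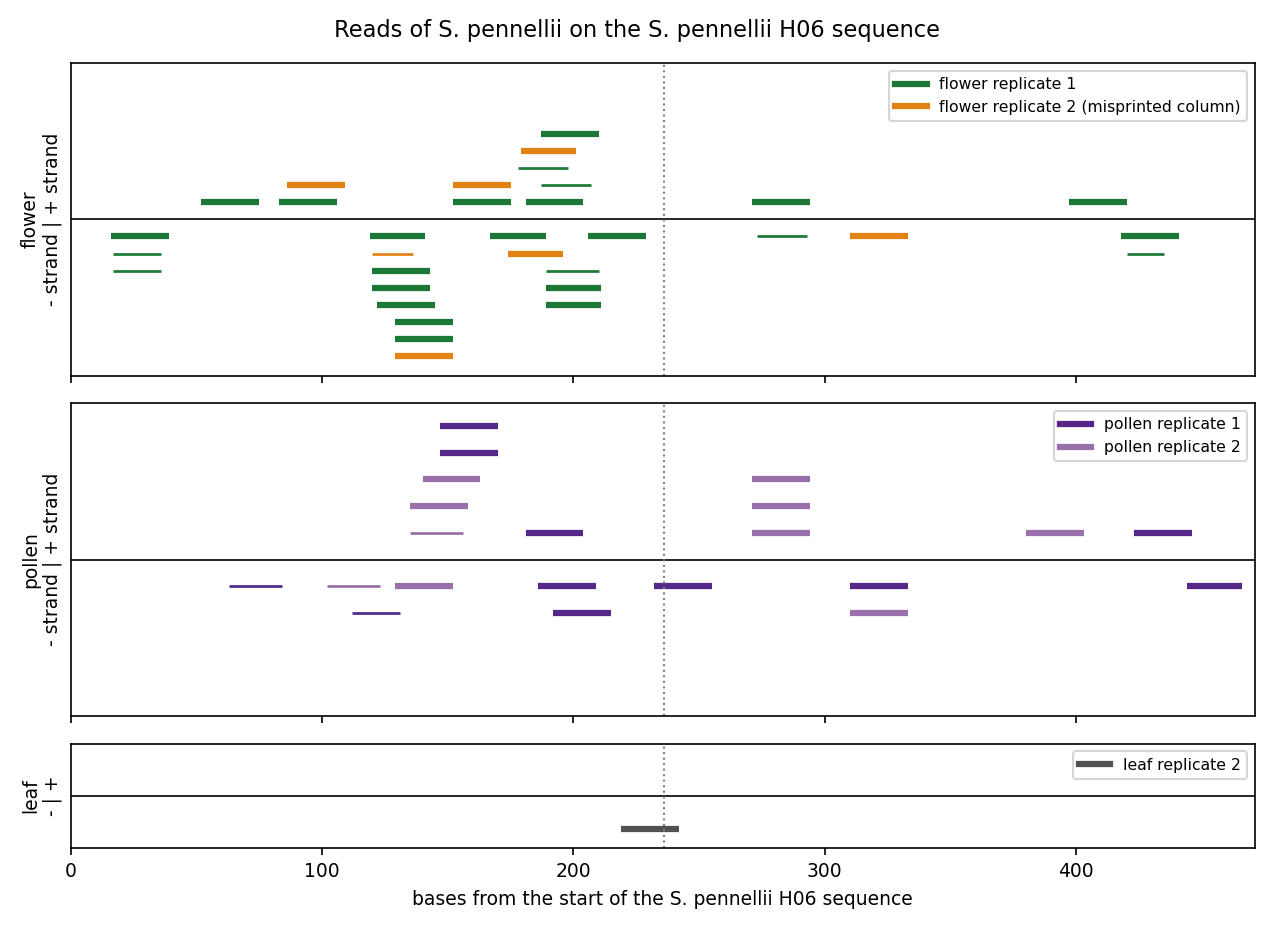
Each line is 1 read placed on the S. pennellii H06 sequence, in bases from its start, above the axis for the forward and below it for the reverse strand; thick lines are reads of 23-24 nt, thin lines shorter reads, and the dotted line is the middle base, 236. Flower reads lie at bases 16 to 441, pollen reads at 63 to 466 and the leaf read at 219 to 242; the 6 pollen reads that match M82 alone have no place here.

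Few sequences recurred. Flower replicate 1 and the pollen libraries each held 22 distinct sequences and shared 3, which is 13.6% of either list, and with the misprinted column flowers and pollen shared 4, or 14.8% of 27 flower and 18.2% of 22 pollen sequences. The pollen replicates shared 1 sequence, 9.09% of the 11 in replicate 1 and 8.33% of the 12 in replicate 2. At 7 to 26 reads per library most sequences were read once, so at this depth a sequence found in 1 library cannot be said to be absent from another. Of the 46 S. pennellii sequences 8 (17.4%) were among the 72 of the F1, and 0 were among the 6 of M82.

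Most reads of S. pennellii flowers and pollen matched the S. pennellii allele alone. In flower replicate 1, 25 of 26 reads (96.2%, 80.4 to 99.9) matched S. pennellii alone, 1 matched both alleles and 0 matched M82 alone. Flower replicate 2 had 5 of 7 (71.4%), which lay between the pollen libraries. In pollen it was 10 of 12 reads in replicate 1 and 9 of 15 in replicate 2, together 70.4% (49.8 to 86.2). The reads that matched M82 alone were 1 in pollen replicate 1 and 5 in pollen replicate 2. Without replicate 2 the pollen share was 83.3%, and without replicate 1 it was 60%. The share of 23-24 nt reads that matched M82 alone was 0 of 9 in pollen replicate 1 and 3 of 11 in pollen replicate 2.

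The M82-type reads of pollen differed from the S. pennellii sequence at few bases. Of the 5 sequences 3, with 4 reads, carried the same difference, A402G, in which the S. pennellii base comes first, the position is counted from the start of the S. pennellii sequence on its forward strand, and the M82 base comes last. In S. pennellii libraries 2 reads covered that position with the S. pennellii base, 1 in flower replicate 1 and 1 in pollen replicate 2. Pollen replicate 2 therefore held both forms. The 19-nt sequence differed from S. pennellii at 2 bases and the 15-nt sequence at 1. The sequence with 2 reads was also read 1 time in F1 flowers, where both alleles are present, and none of the 5 was in an M82 library.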

How the data were processed

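Leaf, flower and pollen sRNA libraries were sequenced by the authors on a HiSeq platform, trimmed with Trim Galore and mapped with Bowtie 1.1.1, allowing no mismatch, to H06 as it reads in S. pennellii and in M82. The deposited values are raw counts of each matching sequence in each library, 1 row per sequence and match. They carry no normalization, and library depth is not in the tables, so none was added. All 24 value columns were read. Each sequence was counted once per library, whatever its number of matches. Positions are those of the deposited tables, counted from 1 at the start of each H06 sequence (471 bases in S. pennellii and 462 in M82). The copy of the S. pennellii sequence used to mark differing bases lacks 60 bases, in which 19 table matches lie. The middle base was 236, and bins held 50 bases.

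Libraries were compared by two-sided exact permutation tests on the absolute difference of means, stratified by tissue or genotype where both entered, with Benjamini-Hochberg adjustment and a threshold of 0.05. Single shares have exact (Clopper-Pearson) 95% binomial intervals, counts exact Poisson intervals and ratios intervals from the exact binomial, all for counting error only. The tests were checked on simulated data. Python 3.11.15, scipy 1.17.1, numpy 2.4.6 and pandas 2.3.3 were used. Named sequences are every leaf sequence, every sequence matching M82 alone, and those with 2 or more reads or libraries, up to 12. The libraries, sequences and lists were chosen with earlier results of these data known, and the comparisons of shares with the F1 were added after the data had been seen. The paper gives individual plants as replicates, and its wording allows libraries of different tissues to share a plant. The tests took libraries as independent, except where replicate numbers were used as blocks. Alternatives were the misprinted column, all sizes or 24 nt alone, distinct sequences, every match counted, reads matching S. pennellii only, rank sums, another two-sided p, a replicate block and leaving out each library. The block for shares was added after the data had been seen. Shares by position count only reads placed on the S. pennellii sequence. The seedling table was not used here.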

Additional observations from a re-analysis of the deposited data

Results flagged for a closer look

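One of the 4 F1 leaf libraries held 2 H06 reads of 23-24 nt, replicate 4, while the other F1 leaf libraries held 0. Its distance from the rest was the whole range of the group, which drew attention to it, but with 3 libraries at 0 any read in the fourth would have done so. At 2 reads it does not exceed the counting interval of a library with 0 reads, up to 3.69.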

How the results depend on the processing

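All 6 differences in the number of 23-24 nt reads stayed above 0 under every alternative run, apart from the difference to the F1 under the replicate block, which was 0 (exact p = 1). Leaving out each library in turn gave 18 to 19 reads for flower minus leaf, 8.5 to 10.5 for pollen minus leaf, 8 to 10 for flower minus pollen, 9.5 to 14.5 for both minus leaf, 8.83 to 9.5 for S. pennellii minus M82 (exact adjusted p from 0.0370, without S. pennellii leaf replicate 1, to 0.167) and 3 to 4.89 for S. pennellii minus F1 (exact adjusted p from 0.0333, without F1 pollen replicate 2, to 0.331). No value could be had without flower replicate 1 where flowers rest on it. With replicate numbers as a block the other differences were 19, 9.5, 10, 12 and 7.2 (exact p from 0.125 to 1); nothing in the labels pairs the numbers. Pairing flower and pollen by number, the difference in forward share was -17.15 points and no longer passed the threshold (exact adjusted p = 0.156). The 23-24 nt share of S. pennellii minus the F1 was -2.38 points and 0.785 with the misprinted column, both within the spread. Counting distinct sequences, the pollen share of 23-24 nt was 69.6%; with 23-24 nt alone, the flower share matching S. pennellii alone was 100% and the pollen share in the first part 47.1%. Leaving out a pollen library gave 50% to 63.6% for the first part, 60% to 83.3% for S. pennellii alone, 41.7% to 53.3% forward and 73.3% to 75% of 23-24 nt. The values rest on 0 to 26 reads per S. pennellii library, 1 flower library of sure name and 2 libraries per other tissue.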
